A study of Mus musculus with 8 samples.

Results

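Interferon-stimulated genes are the genes that cells switch on in response to interferons, and 42 of them, chosen as a list of gene names, were followed here. Of the 42, 38 had a probe set annotated to that gene alone on the array, out of 17097 such genes, and 34 of those passed the filter on dim genes that left 12250 genes for testing. The signals of Isg15, Oas1a, Ifi44 and Bst2 were not analysed here, though their promoters were. Where a gene had several probe sets, the one with the highest 8-array mean stood for it.

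The series holds 8 Affymetrix expression arrays of total RNA. The 4 arrays labelled Trib1 hi came from mouse acute myeloid leukaemia (AML) cells whose genotype is given as Hoxa9 and Trib1, and the 4 labelled Trib1 null from AML cells whose genotype is given as Hoxa9. By their labels, both groups share the expression of Hoxa9, a homeobox protein able to turn myeloid progenitors leukaemic, and an origin in the homozygous Trib1 knock-out mouse. Both were cultured untreated in IMDM with 10% fetal bovine serum and IL-3 at 5 ng/ml. Trib1, a pseudokinase, recruits the ubiquitin ligase COP1 so that the transcription factor C/EBP alpha is degraded. The labels give neither the number of lines or cultures behind a group nor how Hoxa9 and Trib1 expression is driven, so the p-values reflect only how these arrays vary, which may be technical, and a difference between lines cannot be told apart from one linked to Trib1.

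Type I interferons bind a receptor made of IFNAR1 and IFNAR2, which signals through the kinases TYK2 and JAK1. A complex that holds STAT2 and IRF9 then binds the interferon-stimulated response element of promoters, while interferon gamma acts through IFNGR1 and IFNGR2 and the gamma-activated site. The products detect foreign nucleic acid, block viral replication or attack pathogens inside vacuoles, and many of the genes are also expressed at a low level in blood cells that no virus has infected.

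The promoters are shown first, since the response element is a sequence that many members share. RefSeq promoters (build GRCm38.p6, 250 bases before to 50 after each start) matched 32 of the 42 genes, and Oas2, Mx1, Mx2, Usp18, Dhx58, Iigp1, Parp9, Parp14, Zbp1 and Rtp4 had none in that table. The core of the response element, GAAA and GAAA with any 2 bases between them, was searched on both strands and occurred in 18 of these 32 genes (56.2%), against 1079 of 27025 genes in the whole table (3.99%). The letters TTCNNNGAA, the core of the gamma-activated site and its own reverse complement, occurred in 11 of the 32 (34.4%), against 9.55% of all genes. Matches of both kinds overlapped in Bst2 and Ifitm3. The response element core occurred in 9 of the 15 members with signal called lower in arrays labelled Trib1 hi and in 9 of the 17 others. Those 9 others include Isg15, Oas1a and Bst2, whose signals were not analysed, and Ifit1, removed by the filter on dim genes. The 2 shares are therefore no contrast of called with uncalled genes. A match is a description of these letters and no evidence of binding.

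The following upstream stretches end at the base before the start and run 5′ to 3′ on the gene's strand, with matches to the response element core in capitals. Irgm1, Igtp, Gbp7, Gbp2 and Rsad2 are shown because their signals were called lower. Ifit1 is shown as a gene with 2 matches that lay at the bottom of the scale in both groups, and Trim30a as a gene above 500 on every array with a match that was not called. Of all promoters printed, Rsad2, Gbp2, Ifih1, Eif2ak2, Irgm1 and Ifitm3 had the 6 largest fitted differences among called genes with a match, and the others were added after the values were seen.
Irgm1 (chr11:48871421-48871550, minus strand): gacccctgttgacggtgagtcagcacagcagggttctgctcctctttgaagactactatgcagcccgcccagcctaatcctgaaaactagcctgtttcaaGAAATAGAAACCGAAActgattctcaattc
Igtp (chr11:58199426-58199555, plus strand): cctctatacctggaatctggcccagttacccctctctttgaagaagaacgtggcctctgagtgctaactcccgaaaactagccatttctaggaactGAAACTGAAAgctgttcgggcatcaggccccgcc
Gbp7 (chr3:142530206-142530335, plus strand): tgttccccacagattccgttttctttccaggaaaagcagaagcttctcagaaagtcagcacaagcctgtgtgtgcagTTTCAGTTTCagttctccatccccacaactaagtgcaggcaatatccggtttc
Gbp2 (chr3:142620533-142620662, plus strand): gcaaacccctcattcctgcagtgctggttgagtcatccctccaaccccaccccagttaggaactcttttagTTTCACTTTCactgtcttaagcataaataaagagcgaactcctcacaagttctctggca
Rsad2 (chr12:26456453-26456582, minus strand): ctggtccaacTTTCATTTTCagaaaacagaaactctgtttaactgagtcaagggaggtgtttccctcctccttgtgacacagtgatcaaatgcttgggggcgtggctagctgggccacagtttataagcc
Ifit1 (chr19:34640759-34640888, plus strand): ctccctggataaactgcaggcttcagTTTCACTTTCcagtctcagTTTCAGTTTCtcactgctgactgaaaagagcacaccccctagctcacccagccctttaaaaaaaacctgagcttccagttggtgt
Trim30a (chr7:104465194-104465323, minus strand): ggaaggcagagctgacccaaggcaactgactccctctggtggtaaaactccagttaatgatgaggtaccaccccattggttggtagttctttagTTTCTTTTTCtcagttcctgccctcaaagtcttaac

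In 4 further called genes the match lay after the start, and 30 bases that hold it are shown, again with matches in capitals.
Ifih1 (chr2:62646206-62646235, minus strand): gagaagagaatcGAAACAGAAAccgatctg
Eif2ak2 (chr17:78882535-78882564, minus strand): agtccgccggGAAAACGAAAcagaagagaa
Ifitm3 (chr7:141010715-141010744, minus strand): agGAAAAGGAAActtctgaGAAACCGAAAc
Ddx58 (chr4:40239804-40239833, minus strand): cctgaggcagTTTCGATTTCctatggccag
In Irgm1 the 2 matches overlap and begin 30 and 24 bases before the start, and in Igtp the match begins 34 bases before it. In Gbp7 and Gbp2, guanylate-binding proteins of the same cluster on chromosome 3, the matches begin 53 and 59 bases before the start.

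Signals at the bottom of the scale were not comparable between arrays. The 75th percentile of all probe sets was 17.5, 15.5, 422 and 97.3 on the arrays labelled Trib1 hi 1 to 4, against 385, 223, 289 and 292 on those labelled Trib1 null 1 to 4, while 90th percentiles ran from 1808 to 1985. Trib1 hi 3 stood apart from the other 3 arrays of its group in this range. Folds were therefore computed with signals below 500 set to 500 (close to the trimmed mean of every array, 500.1 to 500.2), and are written "at least" where only 1 group lay at 500 or more on every array. Trib1 itself read against its label, at 7.13, 7.13, 122 and 5.92 on arrays labelled Trib1 hi, against 304, 223, 212 and 206 on arrays labelled Trib1 null, all below 500 (log2 difference -3.72, adjusted p = 0.0498). Hoxa9, which both groups express by their labels, read 14.3, 14.3, 391 and 10.0 on arrays labelled Trib1 hi, against 969, 1075, 1031 and 1020.1 on arrays labelled Trib1 null, and was at least 2.05-fold lower in the arrays labelled Trib1 hi (adjusted p = 5.15e-06). Every direction given here is therefore that of the labels. Of 9 myeloid blast markers, Ptprc, Itgam, Csf2rb and Elane exceeded 500 on every array, and the 9 summed to 30270 to 40200 in the arrays labelled Trib1 hi and 31850 to 37610 in those labelled Trib1 null. The 4 T cell, 4 B cell and 4 NK cell markers on the array lay below 500 on every array. Of 7 markers of plasmacytoid dendritic cells, which make type I interferon, 6 were on the array and 5 lay below 500 on every array, and the other, Cox6a2, averaged 2270 ± 144 in the arrays labelled Trib1 hi and 17.8 ± 26.8 in those labelled Trib1 null (SD, n = 4 each). The list sum accordingly ran from 2277 to 2635 in the arrays labelled Trib1 hi and from 206.7 to 439 in those labelled Trib1 null. Maturity markers differed between the groups too: Itgam averaged 1660 ± 88.9 in the arrays labelled Trib1 hi and 5122 ± 325 in those labelled Trib1 null, and Mpo averaged 5201 ± 755 in the arrays labelled Trib1 hi and 2.92 ± 0.791 in those labelled Trib1 null (SD, n = 4 each). Of the same 9 myeloid blast markers, Elane and Kit were called higher in the arrays labelled Trib1 hi, like Mpo. Cd33, Csf3r and Spi1 were called lower, like Itgam, and Ptprc and Csf2rb were not called. Elane averaged 4452 ± 653 in the arrays labelled Trib1 hi and 802 ± 170 in those labelled Trib1 null (SD, n = 4 each). The sum of the 9 hides these opposite differences. The macrophage markers Adgre1 and Cd68 exceeded 500 on every array, while Csf1r, C1qa and C1qb lay below it on every array. These 5 summed to 7276 to 9483 in the arrays labelled Trib1 hi and 7749 to 8696 in those labelled Trib1 null. The sums hide opposite differences. Adgre1 averaged 5964 ± 768 in the arrays labelled Trib1 hi and 4111 ± 263 in those labelled Trib1 null. Cd68 averaged 2760 ± 313 in the arrays labelled Trib1 hi and 4207 ± 181 in those labelled Trib1 null (SD, n = 4 each). Of 6 fibroblast and endothelial markers Pecam1 alone exceeded 500, and the 2 erythroid markers on the array lay below it throughout. The part of these markers in the results was not tested.

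The interferon-stimulated genes that these cells express were mostly lower in arrays labelled Trib1 hi, with none called higher. Of 34 tested, 19 fell, 0 rose and 15 did not pass the threshold (limma with Benjamini-Hochberg adjustment over all genes, adjusted p below 0.05), with a median log2 difference of -0.90 against 0.04 over all genes tested. Over all 12250 genes, 19.7% were called lower and 11.1% higher. The groups did not overlap in 16 of the 34, all with the arrays labelled Trib1 hi below, where 15.8% of all genes tested lay that way. None of the IFIT or 2-5A synthetase members, classic targets of type I interferon, was called on this scale, and they lay below 200 on every array, though Oas3 was called lower with other settings. In bulk RNA, fewer cells of a type and less RNA per cell cannot be told apart.

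**Figure D1:**
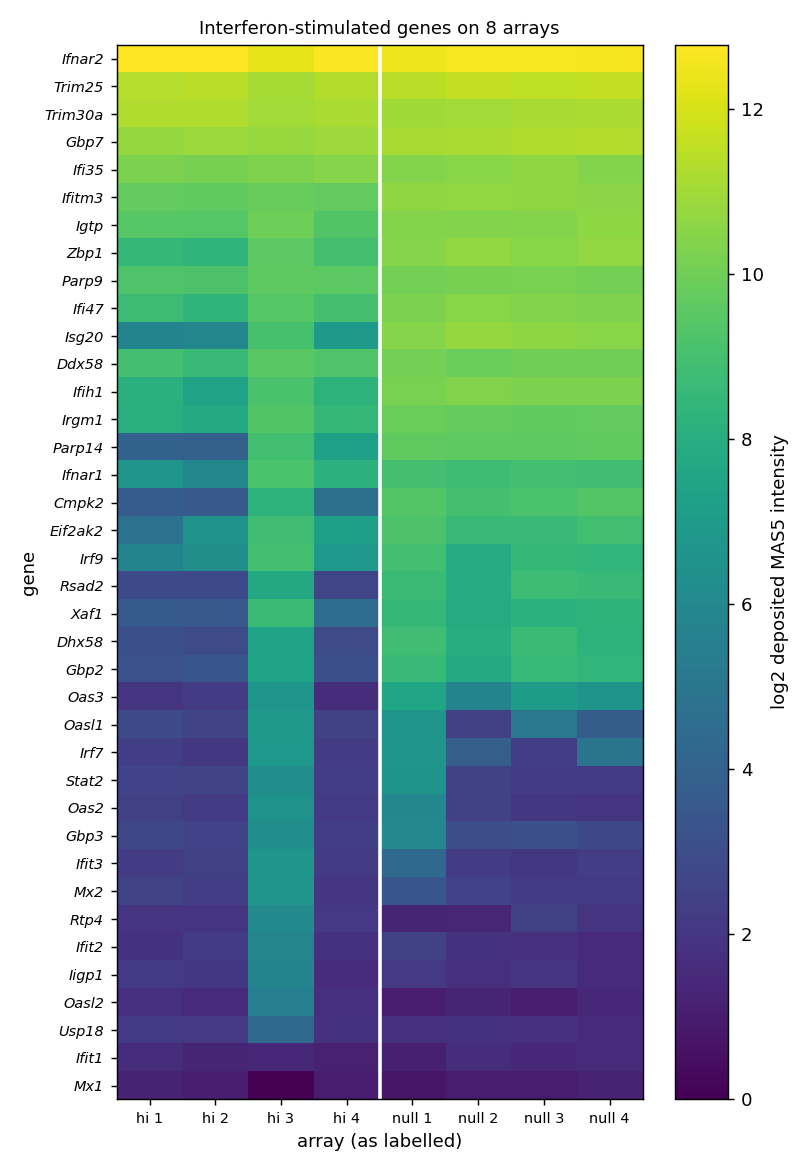
Signal of the 38 interferon-stimulated genes (rows, brightest at the top) on the 4 arrays labelled Trib1 hi (left) and the 4 labelled Trib1 null (right), as log2 of the deposited MAS5 intensity. From Ifitm3 down to Gbp2 the left columns are darker except for Trib1 hi 3 in some rows, and the lowest rows are dark on all arrays except Trib1 hi 3 and, in part, Trib1 null 1.

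Brightness sets how far these counts can be read. Among genes with a mean signal of 100 to 500, the median log2 difference of all 2041 genes was -1.96 and 36.7% were called lower. The 9 members in that window, Rsad2, Cmpk2, Dhx58, Gbp2, Xaf1, Parp14, Eif2ak2, Ifnar1 and Irf9, had a median of -3.49, and 8 of them were called lower. The central 90% of all genes there lay between -4.07 and 0.77. All of these members but Rsad2 (-4.15) lay within that range, among many genes with differences of like size. Among genes with a mean signal of 500 to 2500 the median over all 3122 genes was -0.16, with 38.3% called lower and 21.3% higher. The 12 members there had a median of -0.92, and 10 (83.3%) were called lower and 0 higher. With a floor of 500, 13 of the 19 members left (68.4%) were lower and 0 higher, where 29.7% of 6352 genes were lower and 21.8% higher, and with quantile normalization 21 of 34 (61.8%) were lower and 0 higher, where 27.4% of all genes were lower and 27.4% higher. Testing only genes with a mean above 500 gave 11 of 14 members (78.6%) lower and 0 higher, where 33.2% of 5326 genes were lower and 26.3% higher. Both the windows and this filter used the mean over all 8 arrays. Isg20, Ifih1, Irgm1, Ifi47 and Zbp1 averaged below 500 in the arrays labelled Trib1 hi and passed through the arrays labelled Trib1 null. These counts are therefore no separate support for them. Of the 8 members at 500 or more on every array, Gbp7, Igtp, Trim25, Parp9 and Ifitm3 were called lower. Ifi35, Trim30a and Ifnar2 were not called. The 13 genes lower with the floor were Isg20, Cmpk2, Ddx58, Ifih1, Gbp7, Igtp, Irgm1, Ifi47, Trim25, Parp9, Parp14, Zbp1 and Ifitm3. Genes entered the fit with the floor if any array exceeded 500. Cmpk2 and Parp14 did so only on arrays labelled Trib1 null, so that fit is no separate support for them.

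**Figure D2:**
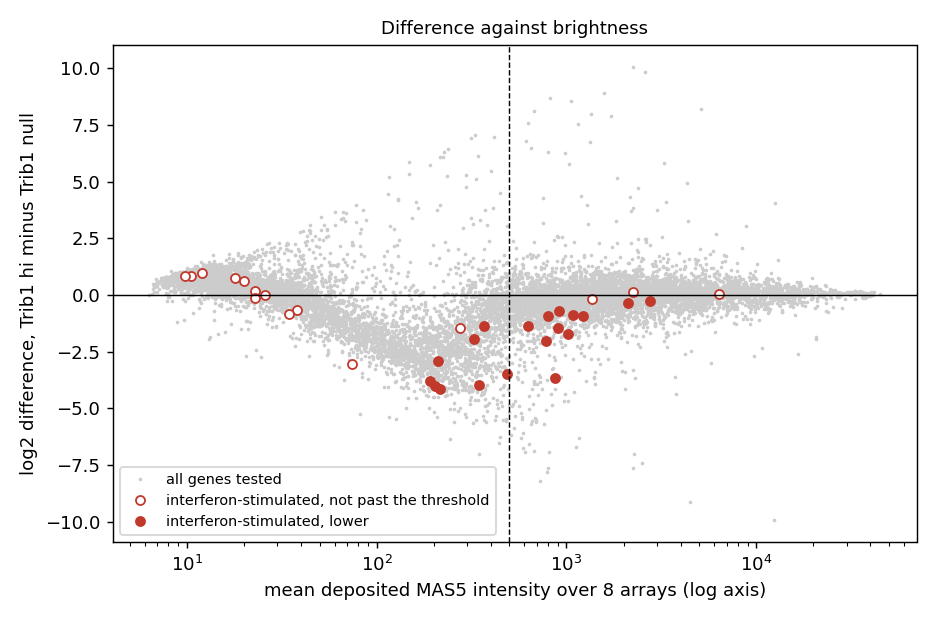
Fitted log2 difference (arrays labelled Trib1 hi minus Trib1 null) against mean deposited MAS5 intensity over the 8 arrays (log axis), for all 12250 genes tested (grey) and the 34 tested interferon-stimulated genes (red, filled where called lower). The dashed line marks 500. Between 100 and 500 the whole cloud sinks to a median of -1.96. Filled points lie below 0 by definition. Of the open points above 500, those of Trim30a and Ifnar2 lie above 0 and that of Ifi35 below.

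All 5 nucleic acid sensors were called lower, against 19.7% of all genes, and 3 of them also with the floor, against 29.7%. The other 2, Dhx58 and Eif2ak2, lay in the window from 100 to 500, where 36.7% of all genes were lower. Zbp1, a sensor of left-handed nucleic acid that can trigger necroptosis, read 372, 335, 744 and 513 on arrays labelled Trib1 hi, against 1395, 1681, 1443 and 1679 on arrays labelled Trib1 null. Every array labelled Trib1 hi lay below every array labelled Trib1 null, and Trib1 hi 3 was the highest of its group. Zbp1 was at least 2.78-fold lower, with a fitted log2 difference of -1.72 (95% interval -2.08 to -1.35, adjusted p = 2.50e-09). Ifih1, which encodes MDA5, the sensor of long double-stranded RNA, read 281, 167, 549 and 310.4 on arrays labelled Trib1 hi, against 1182, 1314, 1217 and 1228 on arrays labelled Trib1 null. The 4 values of the arrays labelled Trib1 null lay close together and the others spread over a wider range below them. The fall was at least 2.41-fold (log2 difference -2.03, interval -2.51 to -1.56, adjusted p = 1.86e-08).

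Ddx58, which encodes RIG-I, the sensor of RNA ends, read 503, 406, 719.9 and 609 on arrays labelled Trib1 hi, against 1104, 953, 1036 and 1029 on arrays labelled Trib1 null. These groups were also apart, and the fall was at least 1.79-fold (log2 difference -0.91, adjusted p = 6.60e-05). The other 2 probe sets of Ddx58 lay below 200 on every array, and with the mean of all 3 the call was lost (adjusted p = 0.737). Dhx58, which encodes LGP2, a regulator of both RNA sensors, read 8.81, 7.69, 164 and 7.78 on arrays labelled Trib1 hi, against 466, 248, 419 and 307 on arrays labelled Trib1 null. All 8 values are below 500, so no fold is given (log2 difference -4.04, adjusted p = 0.0111), and the call was lost without Trib1 null 1, 3 or 4 (adjusted p = 0.0581 to 0.0818) and with the mean of its probe sets (0.447). Eif2ak2, which encodes PKR, the kinase that halts translation on double-stranded RNA, read 27.9, 90.8, 462 and 155 on arrays labelled Trib1 hi, against 587, 405, 397 and 481 on arrays labelled Trib1 null. The groups overlapped, Trib1 hi 3 lying within the range of the arrays labelled Trib1 null, and the call (log2 difference -1.95, adjusted p = 0.00926) was lost with the floor (adjusted p = 0.488), with no filter (0.0626), with the mean of probe sets per gene (0.0844) and without a mean-variance trend (0.135). Eif2ak2 is the only tested member on chromosome 17, where 44.7% of 636 tested genes were called lower and 2.83% higher.

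**Figure D3:**
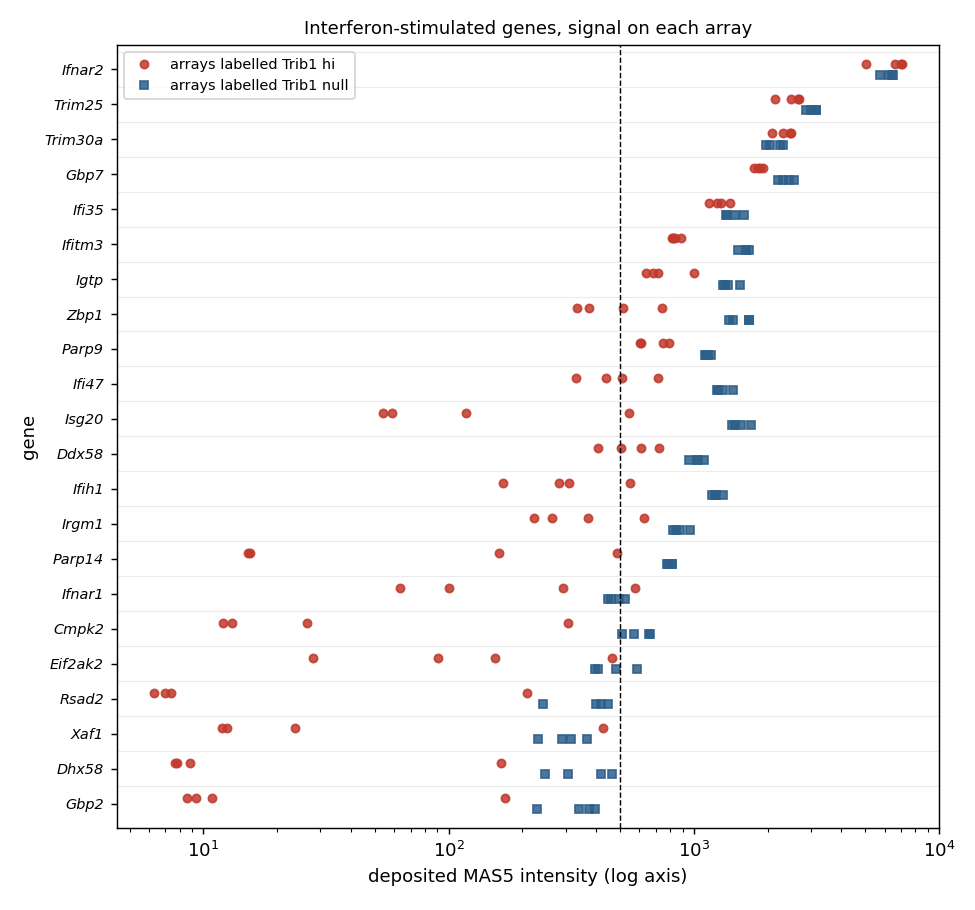
Deposited MAS5 intensity (log axis) on each array for the 22 interferon-stimulated genes that were called or had a group at 500 or more on every array, ordered by mean, with circles for the 4 arrays labelled Trib1 hi, squares under them for the 4 labelled Trib1 null and a dashed line at 500. From Ifitm3 down to Parp14 every circle lies left of every square, while Rsad2, Xaf1, Dhx58 and Gbp2 have 3 circles near the lower end of the scale and that of Trib1 hi 3 near the squares.

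The interferon-inducible GTPases, which act on vacuoles that hold bacteria or parasites, showed 5 lower and 0 higher among 7 tested, against 19.7% of all genes lower. Ifi47, an immunity-related GTPase also called IRG-47, read 437, 332, 715 and 511 on arrays labelled Trib1 hi, against 1242, 1439, 1310.1 and 1259 on arrays labelled Trib1 null. The groups did not overlap and the fall was at least 2.38-fold (log2 difference -1.44, interval -1.80 to -1.08, adjusted p = 5.60e-08). Igtp, which encodes IRGM3, read 717, 680.3, 1005 and 640.0 on arrays labelled Trib1 hi, against 1340.2, 1314, 1381 and 1544 on arrays labelled Trib1 null. Both groups were above 500 throughout and apart, a 1.86-fold fall (log2 difference -0.89, interval -1.18 to -0.61, adjusted p = 4.20e-06). Irgm1, a regulator of the other immunity-related GTPases, read 264, 222, 629 and 371 on arrays labelled Trib1 hi, against 967, 882, 821 and 845 on arrays labelled Trib1 null. It was at least 1.66-fold lower (log2 difference -1.35, adjusted p = 3.94e-05). These 3 genes all lie on chromosome 11.

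Of the guanylate-binding proteins, Gbp7 and Gbp2 were called lower and Gbp3 was not called. Gbp7 read 1762, 1855, 1826 and 1911 on arrays labelled Trib1 hi, against 2206, 2313, 2448 and 2553 on arrays labelled Trib1 null. The groups were apart with little spread in either, and the fall was 1.29-fold (log2 difference -0.37, interval -0.56 to -0.18, adjusted p = 0.00226). A second Gbp7 probe set, at 1289 ± 164 on average in the arrays labelled Trib1 hi and 1576 ± 75.9 in those labelled Trib1 null (SD, n = 4 each), lay the same way. Gbp2 read 9.32, 10.8, 170.4 and 8.59 on arrays labelled Trib1 hi, against 395, 229, 374 and 339 on arrays labelled Trib1 null, all below 500 (log2 difference -3.80, adjusted p = 0.0152). The call was lost without Trib1 null 1, 3 or 4 (adjusted p = 0.0693 to 0.0957). Its second probe set averaged 51.5 ± 86.3 in the arrays labelled Trib1 hi and 294 ± 81.5 in those labelled Trib1 null (SD, n = 4 each). Gbp3 and Iigp1 lay below 100 on every array and were not called (adjusted p = 0.963 and 0.500).

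Among the antiviral effectors, 4 of 7 tested were lower and 0 higher, against 19.7% of all genes lower. Of the 4, Rsad2 and Cmpk2 lay in the window from 100 to 500, where the median of all genes was -1.96. Isg20, an exonuclease that degrades viral RNA, read 54.2, 58.7, 542 and 118 on arrays labelled Trib1 hi, against 1431, 1718, 1559 and 1467 on arrays labelled Trib1 null. Trib1 hi 3 alone of its group exceeded 500, and all 4 stayed far below the arrays labelled Trib1 null. The fall was at least 3.02-fold (log2 difference -3.65, interval -4.48 to -2.81, adjusted p = 1.14e-08). Ifitm3, a membrane protein that blocks the entry of enveloped viruses, read 838, 812, 889 and 825 on arrays labelled Trib1 hi, against 1633, 1677, 1637 and 1514 on arrays labelled Trib1 null. Both groups were tight, above 500 and apart, a 1.92-fold fall (log2 difference -0.94, interval -1.17 to -0.71, adjusted p = 5.20e-08).

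Rsad2, which encodes viperin, and Cmpk2, a mitochondrial nucleotide kinase, are neighbours on chromosome 12 in the RefSeq annotation of GRCm38.p6. Rsad2 read 7.35, 6.97, 208 and 6.29 on arrays labelled Trib1 hi, against 417, 242, 445 and 398 on arrays labelled Trib1 null, all below 500 (log2 difference -4.15, adjusted p = 0.00989). Without Trib1 null 3 or Trib1 null 4 its call was lost (adjusted p = 0.0715 and 0.0633). Cmpk2 read 13.1, 12.1, 308 and 26.5 on arrays labelled Trib1 hi, against 664, 509.6, 569 and 657 on arrays labelled Trib1 null. The arrays labelled Trib1 null lay just above 500 and the fall was at least 1.19-fold (log2 difference -3.97, adjusted p = 0.000350). For both genes Trib1 hi 3 read far above the other 3 arrays of its group, and both calls were lost with the mean of each gene's probe sets (adjusted p = 0.217 and 0.197).

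Both PARP proteins, ADP-ribosyltransferases that take part in interferon signalling, were lower, against 19.7% of all genes. Parp14 lay in the window from 100 to 500, where 36.7% of all genes were lower. Parp9 read 608, 604, 796 and 748 on arrays labelled Trib1 hi, against 1118, 1141, 1172 and 1113 on arrays labelled Trib1 null. The groups were apart, a 1.66-fold fall (log2 difference -0.73, interval -1.02 to -0.44, adjusted p = 0.000100). Parp14 read 15.5, 15.2, 488 and 161 on arrays labelled Trib1 hi, against 814, 780.4, 788 and 817 on arrays labelled Trib1 null, at least 1.60-fold lower (log2 difference -3.49, adjusted p = 0.000133). The 4 arrays labelled Trib1 null lay close together for both genes, which are on chromosome 16. The call for Parp14 was lost without a mean-variance trend (adjusted p = 0.0752) and with the mean of its 2 probe sets (0.267). Xaf1, a factor that promotes apoptosis, read 12.5, 11.9, 427 and 23.5 on arrays labelled Trib1 hi, against 367, 232, 290.4 and 316 on arrays labelled Trib1 null. The groups overlapped at Trib1 hi 3, the highest of all 8 arrays, and the call (log2 difference -2.92, adjusted p = 0.0394) was lost on leaving out any 1 array other than Trib1 hi 3 (adjusted p = 0.0763 to 0.129). It was also lost with scaling to the 90th percentile (adjusted p = 0.0553), a pseudocount of 50 (0.0991) and no filter (0.085). The mean of its probe sets (0.454) and no mean-variance trend (0.116) lost it too.

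Both TRIM genes and Ifi35 lay above 500 on every array, and 1 of the 3 was called lower, against 19.7% of all genes. Trim25, the ubiquitin ligase that activates RIG-I, read 2652, 2688, 2149 and 2502 on arrays labelled Trib1 hi, against 2857, 3163, 3009 and 3141 on arrays labelled Trib1 null. The groups were apart, a 1.22-fold fall (log2 difference -0.29, interval -0.48 to -0.10, adjusted p = 0.0176), and the call was lost without Trib1 null 2 or Trib1 null 4 (adjusted p = 0.0582 and 0.0619), with the mean of probe sets per gene (0.0642) and without a mean-variance trend (0.129). Trim30a, a regulator of inflammatory signalling, read 2489, 2467, 2093 and 2320.1 on arrays labelled Trib1 hi, against 1973, 2041, 2245 and 2309 on arrays labelled Trib1 null. The groups overlapped (log2 difference 0.13, interval -0.07 to 0.32, adjusted p = 0.390). Ifi35 read 1239, 1150.4, 1287 and 1404 on arrays labelled Trib1 hi, against 1356, 1469, 1602 and 1364 on arrays labelled Trib1 null. These groups overlapped as well (log2 difference -0.19, interval -0.41 to 0.04, adjusted p = 0.233).

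**Figure D4:**
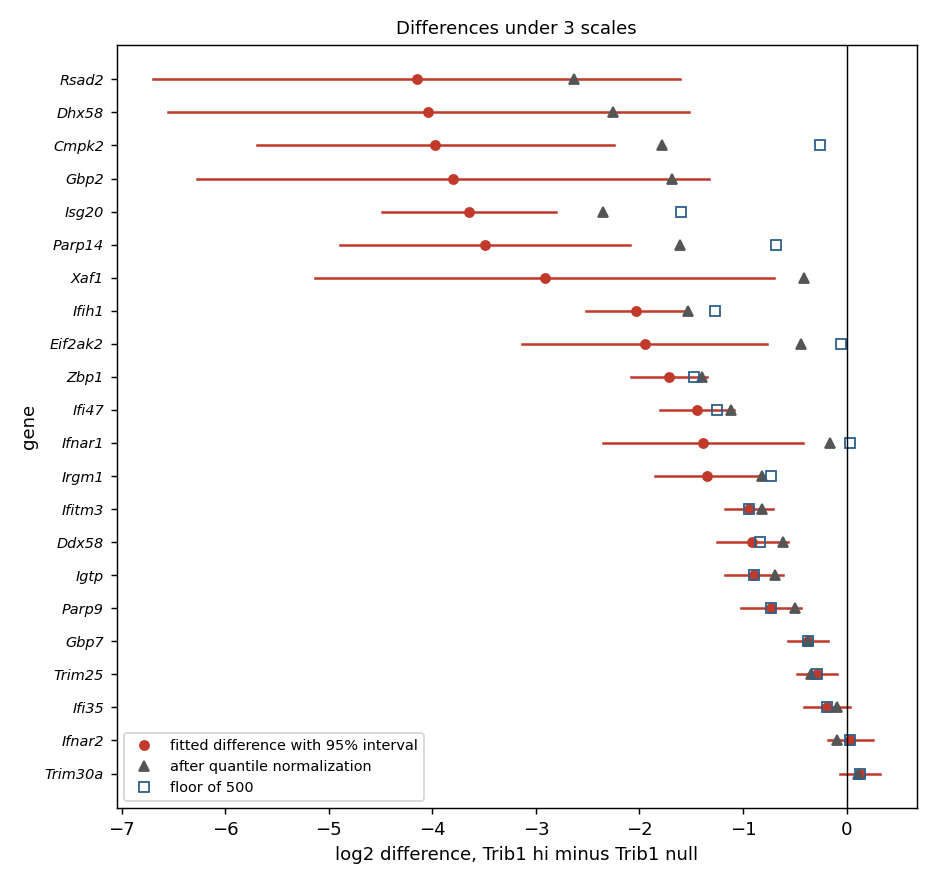
Log2 differences (arrays labelled Trib1 hi minus Trib1 null) of the 22 genes that were called or had a group at 500 or more on every array: the fitted difference with its 95% interval (circle and line), the difference after quantile normalization (triangle) and that with a floor of 500 (open square, absent where all arrays lay below 500). The 3 values lie near each other from Ifitm3 down to Trim30a and spread apart for genes with arrays below 500 such as Cmpk2 and Ifnar1.

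Neither chain of the type I interferon receptor gave a call that held across settings. Ifnar2, the chain that associates with STAT2, read 7057, 7017, 5057 and 6645 on arrays labelled Trib1 hi, against 5733, 6493, 6461 and 6253 on arrays labelled Trib1 null. The groups overlapped, Trib1 hi 3 being the lowest of all 8 (log2 difference 0.04, interval -0.18 to 0.25, adjusted p = 0.874). The value was -0.09 after quantile normalization (adjusted p = 0.00649) and 0.11 without Trib1 hi 3 and Trib1 null 1 together (adjusted p = 0.0410), so it passed the threshold in opposite directions. Another Ifnar2 probe set averaged 2063 ± 72.1 in the arrays labelled Trib1 hi and 1769 ± 199 in those labelled Trib1 null. There the groups were apart, with the arrays labelled Trib1 hi above. A further Ifnar2 probe set averaged 439 ± 184 in the arrays labelled Trib1 hi and 567 ± 74.7 in those labelled Trib1 null (SD, n = 4 each). It lay the other way, with overlap at Trib1 hi 3. Ifnar1, the chain that binds TYK2, read 101, 63.6, 576 and 293 on arrays labelled Trib1 hi, against 523, 445, 495 and 462 on arrays labelled Trib1 null. Trib1 hi 3 was the highest of all 8 arrays, and the call (log2 difference -1.38, adjusted p = 0.0238) was lost after quantile normalization (adjusted p = 0.229), without Trib1 hi 1 or Trib1 hi 2 (0.104 and 0.111), and with the floor, where the value was 0.035 (0.663). It was also lost with a pseudocount of 50, no filter, the mean of probe sets per gene and no mean-variance trend.

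The other 16 members on the array, the classic targets of type I interferon among them, had at least 1 array of each group below 500 and were not called in this fit. They were Ifit1, Ifit2, Ifit3, Oasl1, Oasl2, Oas2, Oas3, Mx1, Mx2, Irf7, Irf9, Stat2, Usp18, Gbp3, Iigp1 and Rtp4. Their median signal was 4.48 over Trib1 hi 1, 2 and 4 and 76.0 on Trib1 hi 3, against 15.8 on Trib1 null 1 and 4.49 over Trib1 null 2, 3 and 4. The 2 higher medians belong to the arrays with the highest 75th percentiles of all probe sets in their groups. Irf9, the DNA-binding partner of STAT2, read 54.3, 79.4, 504 and 114 on arrays labelled Trib1 hi, against 491, 240.4, 370.4 and 344 on arrays labelled Trib1 null. Its groups overlapped (log2 difference -1.45, adjusted p = 0.0640). Stat2 read 5.98, 6.10, 75.9 and 5.04 on arrays labelled Trib1 hi, against 98.5, 5.65, 4.90 and 4.49 on arrays labelled Trib1 null, and Irf7, the factor that amplifies interferon production, 5.10, 4.19, 113 and 4.61 on arrays labelled Trib1 hi, against 101, 14.6, 4.96 and 30.1 on arrays labelled Trib1 null. Neither was called (adjusted p = 0.999 and 0.780). Oas3, a synthetase of the 2-5A that activates RNase L, read 3.97, 4.63, 107 and 3.21 on arrays labelled Trib1 hi, against 189, 52.7, 135 and 99.4 on arrays labelled Trib1 null (adjusted p = 0.217). Ifit1, a protein that binds foreign RNA ends, read between 2.26 and 3.15 on arrays labelled Trib1 hi, against between 2.21 and 3.16 on those labelled Trib1 null, and with Oasl2, Mx1 and Usp18 it was removed by the filter. With quantile normalization Oas3 (log2 difference -2.75, adjusted p = 2.15e-06) and Irf7 (-1.23, adjusted p = 0.00709) were called lower, while Irf9 stood at 0.08 (adjusted p = 0.687). Without Trib1 hi 3, and without Trib1 hi 3 and Trib1 null 1 together, Oas3 and Irf9 were called lower. Values this low show only that the probe sets gave little signal.

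The interferon ligands also gave little signal, while several receptors and kinases of the pathway were lower. A list of 50 pathway genes, from ligands to sensors of nucleic acid, had 43 on the array and 38 tested, of which 15 fell, 1 rose and 22 were not called (39.5% lower, against 19.7% of all genes), with a median log2 difference of -0.38. Among its 15 genes with a mean signal of 500 to 2500, 11 (73.3%) were lower, against 38.3% of all genes in that window. Some of the 11, such as Ikbke, Irf2 and Socs3, averaged below 500 in the arrays labelled Trib1 hi and passed through those labelled Trib1 null. Ifnb1, interferon beta, read 5.16, 4.12, 64.7 and 3.64 on arrays labelled Trib1 hi, against 2.14, 2.63, 3.18 and 3.43 on arrays labelled Trib1 null (log2 difference 1.15, adjusted p = 0.305). It was called higher with quantile normalization (0.78, adjusted p = 0.0299) and without Trib1 hi 3 and Trib1 null 1 together (0.27, adjusted p = 0.0469), with every array below 100. Ifngr1 and Ifngr2, the chains of the interferon gamma receptor, both fell. Ifngr1 read 5038, 4987, 3984 and 5057 on arrays labelled Trib1 hi, against 7213, 8088, 8060.1 and 7394 on arrays labelled Trib1 null, a 1.62-fold fall (log2 difference -0.69, interval -0.90 to -0.49, adjusted p = 1.35e-06). Ifngr2 read 866, 846, 1008 and 532 on arrays labelled Trib1 hi, against 1339, 1263, 1178 and 1121 on arrays labelled Trib1 null, a 1.54-fold fall (log2 difference -0.62, adjusted p = 0.00164). In both the groups were apart.

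Of the receptor kinases, Tyk2 read 857, 720.2, 993 and 804 on arrays labelled Trib1 hi, against 1567, 1483, 1411 and 1418 on arrays labelled Trib1 null, 1.75-fold lower (adjusted p = 3.43e-06). Jak1 read 2109, 2170.2, 1802 and 2249 on arrays labelled Trib1 hi, against 2621, 2899.9, 2727 and 2654 on arrays labelled Trib1 null, 1.31-fold lower (adjusted p = 0.00147). Jak2, a further kinase of the list named after its values were seen, did not fall. It averaged 2644 ± 323 in the arrays labelled Trib1 hi and 2315 ± 61.8 in those labelled Trib1 null (SD, n = 4 each). Its groups overlapped and it was not called (log2 difference 0.18, adjusted p = 0.173). With quantile normalization it was called higher (0.14, adjusted p = 0.0182). The transcription factor Irf1, which interferon gamma induces, averaged 905 ± 194 in the arrays labelled Trib1 hi and 1264 ± 56.5 in those labelled Trib1 null, 1.42-fold lower (adjusted p = 0.00484), and its relative Irf2 averaged 331 ± 113 in the arrays labelled Trib1 hi and 743 ± 39.4 in those labelled Trib1 null, at least 1.48-fold lower (adjusted p = 0.000143; SD, n = 4 each). The calls for Irf1, Ifngr2 and Jak1 were lost without a mean-variance trend (adjusted p = 0.0982, 0.0869 and 0.0508) and with the mean of each gene's probe sets (0.0611, 0.415 and 0.0893).

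The signalling and restriction factors of the same list that were named for their large differences were lower too. Ikbke, the kinase IKK epsilon that activates IRF3, averaged 407 ± 218 in the arrays labelled Trib1 hi and 1301 ± 31.2 in those labelled Trib1 null, at least 2.38-fold lower (adjusted p = 6.85e-08). Myd88, the adaptor of most Toll-like receptors, averaged 929 ± 132 in the arrays labelled Trib1 hi and 1980.4 ± 114 in those labelled Trib1 null, 2.15-fold lower (adjusted p = 2.34e-09). Samhd1, which depletes the nucleotides that viruses need, averaged 1574 ± 54.4 in the arrays labelled Trib1 hi and 3008 ± 105 in those labelled Trib1 null, 1.91-fold lower (adjusted p = 6.41e-10). Of the inhibitors of STAT signalling, Socs3 averaged 223 ± 229.9 in the arrays labelled Trib1 hi and 1102 ± 57.0 in those labelled Trib1 null, at least 2.15-fold lower (adjusted p = 5.24e-06). Pias1, another inhibitor, averaged 579.9 ± 213 in the arrays labelled Trib1 hi and 1067 ± 60.7 in those labelled Trib1 null, at least 1.73-fold lower (adjusted p = 0.000175; each mean ± SD, n = 4), and its call was lost without a mean-variance trend (adjusted p = 0.0541). The gene that rose was Ptpn6, a phosphatase that dampens cytokine signalling, named after its values were seen, at 6138 ± 987 in the arrays labelled Trib1 hi and 4804 ± 403 in those labelled Trib1 null (1.27-fold, adjusted p = 0.0147). Its groups overlapped at Trib1 hi 3. Socs1, a further inhibitor of STAT signalling named after its values were seen, lay the other way from Socs3 and Pias1. It read 7.42, 7.91, 192 and 6.70 on arrays labelled Trib1 hi, against 3.18, 5.31, 4.23 and 3.45 on arrays labelled Trib1 null, all below 500. Socs1 was not called (adjusted p = 0.300), but was called higher with quantile normalization (log2 difference 1.59, adjusted p = 0.000294).

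**Figure D5:**
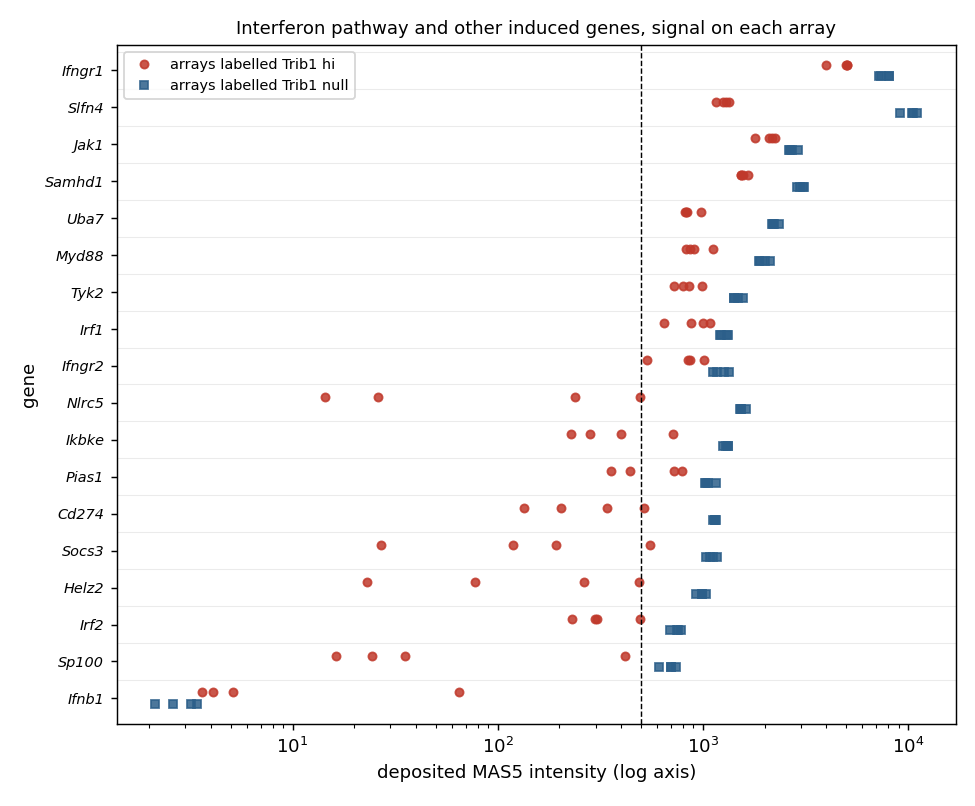
Deposited MAS5 intensity (log axis) on each array for 12 interferon pathway genes and 6 other induced genes named by rule, ordered by mean, with circles for the 4 arrays labelled Trib1 hi, squares under them for the 4 labelled Trib1 null and a dashed line at 500. Except for Ifnb1, at the bottom of the scale, every circle lies left of every square of its gene.

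A second list of 100 other interferon-induced genes had 79 on the array and 72 tested, of which 28 fell, 4 rose and 40 were not called, with a median log2 difference of -0.52. Its share called lower, 38.9%, compares with 19.7% of all genes, and is close to the 36.7% and 38.3% of all genes with mean signals of 100 to 500 and 500 to 2500. In the window from 500 to 2500, 13 of its 22 genes (59.1%) were lower and 1 was higher. Some of the 13, such as Nlrc5, Cd274 and Helz2, averaged below 500 in the arrays labelled Trib1 hi and passed through those labelled Trib1 null. Slfn4, a schlafen protein of myeloid cells, read 1254, 1156, 1300.2 and 1339 on arrays labelled Trib1 hi, against 9126, 11112, 10443 and 10522 on arrays labelled Trib1 null, 8.15-fold lower (log2 difference -3.02, interval -3.21 to -2.84, adjusted p = 1.95e-22). Uba7, the enzyme that activates ISG15 for conjugation, read 814, 834, 983 and 829 on arrays labelled Trib1 hi, against 2162, 2207, 2234 and 2348 on arrays labelled Trib1 null, 2.59-fold lower (adjusted p = 4.06e-12). Both genes were above 500 on all arrays with groups far apart. Nlrc5, the transactivator of MHC class I genes, averaged 194 ± 227 in the arrays labelled Trib1 hi and 1553 ± 43.0 in those labelled Trib1 null, at least 3.11-fold lower (adjusted p = 8.56e-07). Cd274, the checkpoint ligand PD-L1, averaged 299 ± 169 in the arrays labelled Trib1 hi and 1145 ± 16.6 in those labelled Trib1 null, at least 2.27-fold lower (adjusted p = 1.15e-07). The coactivator Helz2 was at least 1.97-fold and the nuclear body protein Sp100 at least 1.37-fold lower (adjusted p = 2.11e-05 and 0.000112), and the call for Helz2 was lost without a mean-variance trend (adjusted p = 0.0623).

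The 4 genes of this list that rose, named after their values were seen, show that the direction was not shared by all induced genes. Oas1g, a 2-5A synthetase, read 2138, 2115, 1874 and 2103 on arrays labelled Trib1 hi, against 1052, 932, 966 and 981 on arrays labelled Trib1 null, 2.09-fold higher (adjusted p = 8.22e-10). Ifi27, a mitochondrial protein, read 3505, 3468, 2796 and 3309 on arrays labelled Trib1 hi, against 1876, 1792, 1692 and 1705 on arrays labelled Trib1 null, 1.85-fold higher (adjusted p = 5.49e-09). In both the groups were apart. Ly6e, a surface protein, averaged 15592 ± 2922 in the arrays labelled Trib1 hi and 10564 ± 1189 in those labelled Trib1 null, with overlap at Trib1 hi 3 (1.46-fold, adjusted p = 0.00223). Ifi205 read 10.4, 11.0, 289.8 and 9.76 on arrays labelled Trib1 hi, against 1.16, 1.45, 1.73 and 1.00 on arrays labelled Trib1 null, all below 500 (adjusted p = 0.0292). Of the 28 lower genes, Daxx, Psmb8, Psmb9 and Tapbp lie on chromosome 17. On other chromosomes 24 of 68 tested genes were lower, against 19.7% of all genes tested on any chromosome.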

How the data were processed

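The authors deposited MAS5 intensities, linear and scaled per array (per the submitters' processing notes, which give no version), from 100 ng of total RNA. The array annotation paired 28898 of 45141 probe sets with 1 gene symbol and 551 with several, which were not used, nor were the 15588 with no listed gene. For each of 17097 genes the probe set of highest mean was used. Tests ran on log2(intensity + 2.71), a pseudocount equal to the overall 25th percentile, and differences are on that scale, where those of dim genes also carry the arrays' shift at low signal. Genes with a mean log2 value above 3.01 (the 40th percentile) were kept. Groups of 4 arrays, taken from the titles, were compared with limma 3.58.1 in R 4.3.3 (lmFit, eBayes with a mean-variance trend, two-sided, Benjamini-Hochberg over all genes tested, threshold 0.05), after a test on simulated data. The number of arrays limits the precision. The members, the pathway and induced gene lists and the limit of 500 were chosen with earlier results of these data known. Values are given by array for called members and for those with a group at 500 or more on every array, and Irf9, Stat2, Irf7 and Oas3 were added after their values were seen. For the other lists, up to 6 genes with the largest differences among called genes with such a group are named, plus Irf1, Ifngr1, Ifngr2, Jak1, Tyk2 and Ifnb1, and 1 further gene of that rule is not reported here. Markers of other cell types were read from lists. Promoters are RefSeq's (GRCm38.p6). Alternatives were quantile normalization, scaling to the 90th percentile, a pseudocount of 50, a floor of 500, no filter, the mean of probe sets, no trend, a replicate block and leaving out each array. Added after seeing the data were leaving out Trib1 hi 3 and Trib1 null 1 together, keeping only genes with a mean above 500, and the brightness windows.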

Additional observations from a re-analysis of the deposited data

Results flagged for a closer look

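In 11 of 80 groups of 4 arrays (2 per named gene), 1 array stood apart from the other 3, its gap to the nearest divided by the range of the group exceeding Dixon's 95% critical value. Chance gives about 1 in 20 groups. In 10 of the 11 the array was Trib1 hi 3. It was the highest of its group for Isg20 (ratio 0.869), Rsad2 (0.995), Cmpk2 (0.951), Dhx58 (0.993), Gbp2 (0.986) and Xaf1 (0.972) among the members, and for Ifnb1 (0.975), Sp100 (0.952) and Uba7 (0.884) in the other lists. It was the lowest of its group for Ifngr1 (0.934). The remaining case was Trib1 null 4 for Nlrc5 (0.832). Trib1 hi 3 also had the highest median signal of all probe sets, 68.3, against 4.09 to 4.94 on the other 3 arrays of its group, and the part of this in the results was not tested.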

How the results depend on the processing

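Of 19 members called lower, 10 were called with the mean of probe sets, while leaving out 1 array gave 14 to 21. With only genes of mean intensity above 500, 11 were called, and the other 8 were not tested because their means lay below 500. No member was called higher except Ifnar2 without Trib1 hi 3 and Trib1 null 1 together (1). The number 1 of pathway genes called higher became 6 with quantile normalization, 2 with the floor, 0 with no filter, the mean of probe sets or no trend, 5 without both arrays, and 0 to 4 leaving out 1. The 15 called lower became 9 with no trend, 24 without both arrays and 13 to 23 leaving out 1, with 23 without Trib1 hi 3. Of the other induced genes, the 4 called higher became 9 with quantile normalization, 2 with no trend, 9 without both arrays and 3 to 6 leaving out 1, and the 28 called lower became 44 with quantile normalization and 26 to 36 leaving out 1. Ifnar1 turned to 0.035 with the floor. Ifnar2 turned to -0.089 with quantile normalization, -0.060 with the mean of probe sets, -0.011 without Trib1 hi 1, -0.0087 without Trib1 hi 2 and -0.0032 without Trib1 null 1, in a range up to 0.15 without Trib1 hi 3. The causes were not tested. Over the 40 named genes, 647 alternative values kept direction and side of the threshold, 49 fell short of it, 3 newly passed it and 6 reversed. With the replicate number as a block, 19 members were called lower, the same 19. Deviations of same-numbered arrays correlated at -0.507, 0.487, -0.294 and 0.367. These values of mixed sign cannot decide whether the numbers pair the arrays, and the titles give only the numbers. Signals below 500 limit what can be read of 22 members that had arrays there in both groups.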
